A study of Mus musculus with 18 samples.

Results

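The 55 genes described here encode the core machinery of the cell cycle and of DNA replication in the mouse. They were picked by symbol and role, with earlier results of these data known, from the 27179 genes in the deposited count tables, and all 55 were found and tested. By role they comprised 9 G1 cyclins and kinases, 12 genes of origin licensing and replication, 3 of nucleotide synthesis, 9 of G2 and mitotic entry, 9 of the spindle checkpoint, chromosomes and mitotic exit, 9 of transcriptional control and 4 inhibitors of cyclin-dependent kinases (CDKs). The comparison asked how far each culture had left the cell cycle. Embryoid bodies, which are floating aggregates of differentiating embryonic stem cells (ESCs), were directed to a ventral spinal cord fate with 1 µM retinoic acid (RA) and 0.5 µM smoothened agonist (SAG), an activator of Hedgehog signaling. All lines were Ainv15 ESCs, and each iHox line carries 1 Flag-tagged Hox transgene at the Hprt locus that doxycycline (Dox) switches on. Day 2 progenitors (line iCre) were collected without Dox. Dox (3 µg/ml) was present for the last 48 h in iHoxc6, iHoxc8, iHoxc9 and iHoxc10 neurons, which were harvested on day 4, and the control neurons were iHoxc6 cells of day 4 that received no Dox. Each of the 6 groups had 3 libraries, which were independent differentiations, so the spread between them is that between cultures of 1 line, and a difference between groups is also one between lines except for iHoxc6 against control. RNA came from whole embryoid bodies, and in such bulk samples fewer cycling cells and less RNA of a gene in each cycling cell cannot be told apart.

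A cell that divides passes from G1, in which D-type cyclins with CDK4 and CDK6 release E2F transcription factors from the retinoblastoma protein, to S phase, in which origins licensed by the MCM helicase fire. It then passes through G2 to mitosis, which cyclin B with CDK1 starts and the spindle checkpoint guards. Genes for S phase are classically controlled through E2F sites in their promoters, and genes for G2 and mitosis through CCAAT boxes, bound by NF-Y, and cell cycle homology regions (CHRs), bound by the MuvB complexes. In the ventral spinal cord, motor neuron progenitors divide, and motor neurons leave the cycle for good as they are born. CDK inhibitors of the Cip/Kip and Ink4 families hold newborn neurons out of the cycle.

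Promoter letters differed in frequency between the licensing genes and the genes of G2 and the spindle, so 6 promoters are shown. RefSeq (GRCm38.p6) gave the window from 250 bases before to 50 bases after the annotated start for 45 of the 55 genes. In these windows the CCAAT box was searched as CCAAT, the CHR as TTTGAA or TTTAAA, and the E2F site as TTTCCCGC, TTTCGCGC, TTTGCCGC or TTTGGCGC, on both strands. TTTAAA reads the same on both strands. An E2F site was present in 7 of 10 licensing and replication genes, in 0 of 3 nucleotide synthesis genes, in 4 of 7 genes of transcriptional control, in 2 of 6 G1 genes, in 1 of 7 genes of G2 and mitotic entry, in 0 of 8 spindle genes and in 0 of 4 CDK inhibitors, against 2.6% of all 27025 genes in the table. A CHR together with a CCAAT box was present in 6 of 7 genes of G2 and mitotic entry and in 5 of 8 spindle genes, in 3 of 7 of transcriptional control, in 2 of 10 of licensing, in 1 of 3 of nucleotide synthesis, in 1 of 4 CDK inhibitors and in 0 of 6 G1 genes, against 12.2% of all genes. Alone, the CCAAT box was in 41.1% and the CHR in 30.6% of all genes. The CCAAT box was in 8 of 10 licensing, 7 of 7 G2 and 6 of 8 spindle genes, so it did not separate these classes. A match is a description of the letters and not a shown binding site. The windows below run 5′ to 3′ in the direction of the gene, and capitals mark every match to these letters, which may touch or overlap one another. Mcm6 (chr1:128359656-128359955, minus strand) and Orc1 (chr4:108579204-108579503, plus strand) stand for the E2F pattern. Ccnb1 (chr13:100786437-100786736, minus strand) and Top2a (chr11:99024140-99024439, minus strand) stand for the mitotic pattern, and Cdk1 (chr10:69352863-69353162, minus strand) holds all the motifs. Cdkn1b (chr6:134920151-134920450, plus strand) holds CCAAT boxes and a TTTAAA and is shown because its RNA rose with the same letters in its promoter.
Mcm6: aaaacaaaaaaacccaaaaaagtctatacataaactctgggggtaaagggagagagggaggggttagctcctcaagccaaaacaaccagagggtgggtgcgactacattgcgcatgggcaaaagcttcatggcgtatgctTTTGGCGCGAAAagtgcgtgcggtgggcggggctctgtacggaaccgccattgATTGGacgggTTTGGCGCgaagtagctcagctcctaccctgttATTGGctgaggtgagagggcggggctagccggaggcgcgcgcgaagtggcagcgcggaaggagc
Orc1: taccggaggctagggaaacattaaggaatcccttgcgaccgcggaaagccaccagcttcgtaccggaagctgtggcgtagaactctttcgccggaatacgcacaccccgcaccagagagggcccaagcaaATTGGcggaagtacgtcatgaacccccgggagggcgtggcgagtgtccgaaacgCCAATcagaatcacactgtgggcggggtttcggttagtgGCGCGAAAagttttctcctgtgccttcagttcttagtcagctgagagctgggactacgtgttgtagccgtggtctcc
Ccnb1: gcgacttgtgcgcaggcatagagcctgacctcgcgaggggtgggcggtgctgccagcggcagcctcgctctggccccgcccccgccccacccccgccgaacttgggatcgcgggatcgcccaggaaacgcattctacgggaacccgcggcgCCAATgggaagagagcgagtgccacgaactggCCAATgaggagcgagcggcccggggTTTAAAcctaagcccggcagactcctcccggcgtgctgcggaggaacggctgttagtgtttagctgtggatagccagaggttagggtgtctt
Top2a: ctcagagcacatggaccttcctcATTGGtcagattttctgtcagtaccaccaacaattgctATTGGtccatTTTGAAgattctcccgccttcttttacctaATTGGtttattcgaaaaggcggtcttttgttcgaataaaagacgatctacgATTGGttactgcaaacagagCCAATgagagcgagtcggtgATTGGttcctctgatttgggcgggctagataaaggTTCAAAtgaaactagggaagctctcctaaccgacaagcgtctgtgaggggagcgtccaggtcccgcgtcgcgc
Cdk1: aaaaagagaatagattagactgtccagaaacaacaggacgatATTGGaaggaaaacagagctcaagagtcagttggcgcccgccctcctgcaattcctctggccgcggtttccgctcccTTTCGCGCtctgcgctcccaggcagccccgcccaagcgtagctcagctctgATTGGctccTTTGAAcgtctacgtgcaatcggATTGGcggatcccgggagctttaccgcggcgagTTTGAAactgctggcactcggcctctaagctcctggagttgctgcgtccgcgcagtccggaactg
Cdkn1b: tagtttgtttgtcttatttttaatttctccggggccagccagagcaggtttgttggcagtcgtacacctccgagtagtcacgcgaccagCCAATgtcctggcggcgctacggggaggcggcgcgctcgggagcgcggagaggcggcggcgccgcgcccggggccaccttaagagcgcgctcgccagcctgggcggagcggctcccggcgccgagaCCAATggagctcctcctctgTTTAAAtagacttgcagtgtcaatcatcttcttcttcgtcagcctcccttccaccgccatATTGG

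Total counts per library ranged from 24498630 to 33168533, and 3 counts, the least taken as detected, correspond to 0.0904 to 0.122 CPM, a floor that reflects counting error alone. CPM, the unit of the levels below, is a gene's share of the reads of its library after scaling by edgeR's TMM factors. Sequencing took 4 runs. Control and iHoxc6 neurons shared 1, iHoxc9 and iHoxc10 neurons shared another, and the day 2 and iHoxc8 libraries were each run apart. Except for iHoxc6 against control and iHoxc9 against iHoxc10, the run and the group cannot be told apart. The second control library stood apart from the other two in these genes. The median over the 55 genes of log2(CPM + 1), taken relative to the day 2 mean, was -1.69, -0.93 and -1.63 in the 3 control libraries, and the same median over 15 neural progenitor markers was -0.17, 0.58 and -0.21. In the third day 2 library several genes, such as Gmnn at 119.9, 113 and 57.2 CPM and Pcna at 772, 706 and 375 CPM in the 3 libraries, were lower than in the first and second. In every iHox line the induced gene was far above all other libraries, with Hoxc6 at 499.9 CPM or more, Hoxc8 at 361, Hoxc9 at 213 and Hoxc10 at 425 or more, against at most 49.4, 0.399, 0.133 and 0.353 CPM elsewhere. The counts of the 55 genes against control are given with and without the second control library.

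RNA of almost the whole machinery fell between day 2 and day 4, in control neurons as in every Hox line, and the median fall was furthest in iHoxc10 neurons. At an adjusted p under 0.01, 48 of the 55 genes were lower in control neurons than in day 2 progenitors, 45 for iHoxc6, 48 for iHoxc8 neurons, 48 for iHoxc9 and 50 for iHoxc10 neurons. Of all 20944 genes tested, 21.2%, 23.9%, 22.3%, 23.3% and 26.1% were lower in these comparisons. Between 2 and 4 of the 55 were higher, against 21.2%, 22.7%, 22.3%, 23.4% and 24.1% of all genes in the same order. The median log2 fold change of the 55 against day 2 was -1.46 in control, -1.32 for iHoxc6, -1.40 for iHoxc8 neurons, -1.45 for iHoxc9 and -2.08 for iHoxc10 neurons, while that of all genes was 0.00 in each. In RNA that remained, these medians are 36.4%, 39.9%, 37.8%, 36.5% and 23.7% of the day 2 level. With the further limit that the study used, a log2 fold change beyond 2, the genes that fell numbered 8 in control, 9 for iHoxc6, 11 for iHoxc8 neurons, 16 for iHoxc9 and 32 for iHoxc10 neurons, beside 5.82%, 7.73%, 6.57%, 7.59% and 9.59% of all genes. Without the third day 2 library 47, 38, 46, 48 and 50 genes were lower, with medians of -1.42, -1.15, -1.36, -1.33 and -1.97, and without the second control library the control median was -1.75. These 5 comparisons share the day 2 libraries, and day 2 is a run and a line of its own.

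Library by library, the median of the 55 genes relative to day 2 was -1.31, -1.36 and -1.20 for iHoxc6, -1.40, -1.44 and -1.19 for iHoxc8 neurons, -1.50, -1.38 and -1.33 for iHoxc9 and -2.08, -2.03 and -1.77 for iHoxc10 neurons, as log2(CPM + 1). The 3 iHoxc10 libraries lay below the 15 other libraries, and the 3 other Hox lines overlapped one another. Control neurons spanned the Hox lines: the second library lay above all of them, and the first and the third lay between iHoxc9 and iHoxc10.

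**Figure D1:**
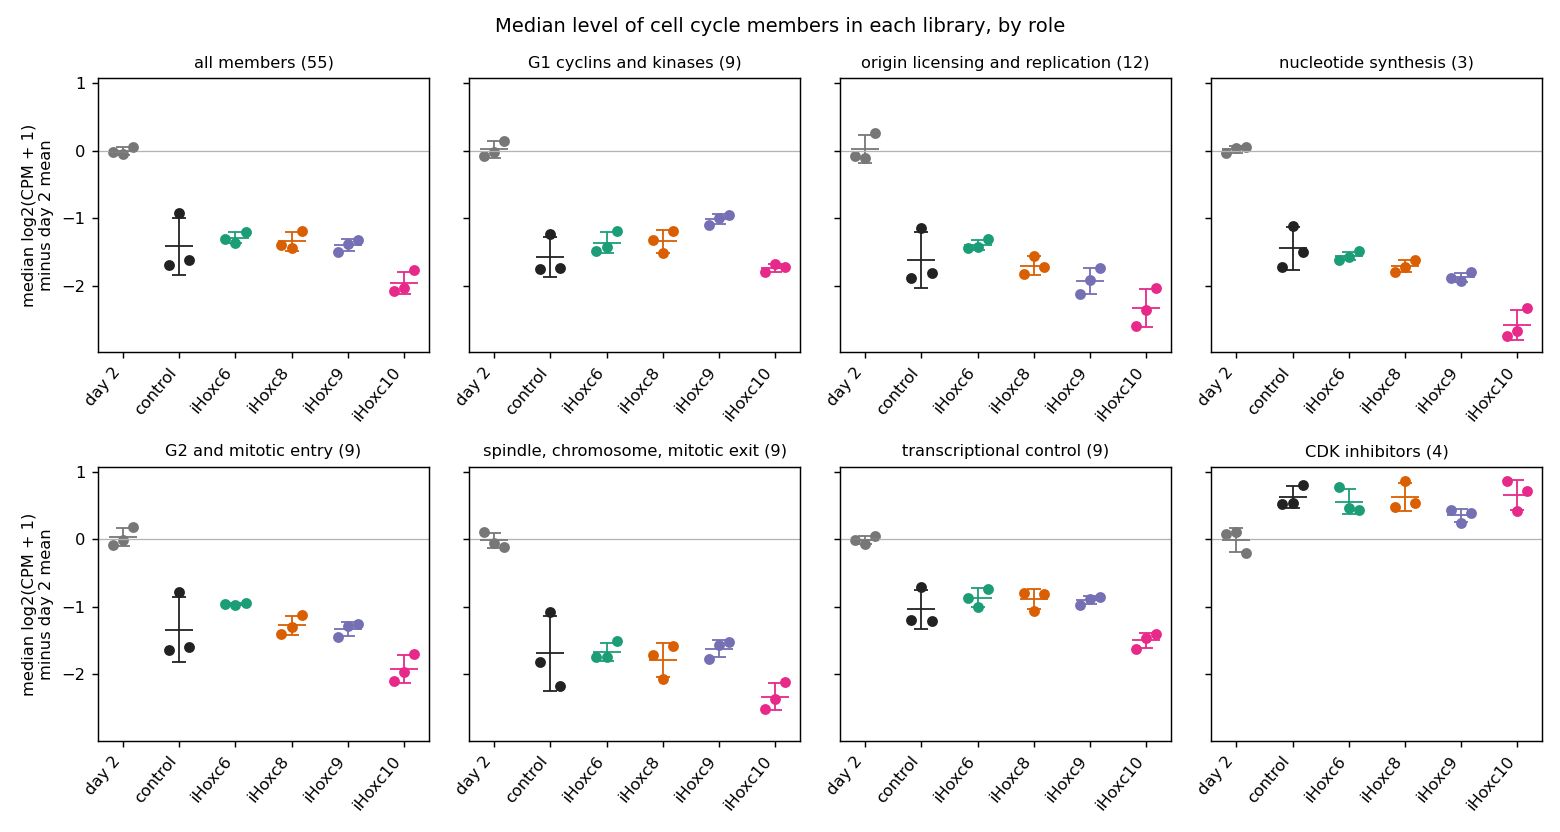
Each point is 1 library, and the y axis gives the median over the genes of a role class of log2(CPM + 1) minus the day 2 mean of each gene, with the group mean (bar) and SD (whiskers, n = 3). The iHoxc10 libraries are lowest for all 55 genes together (-2.08, -2.03 and -1.77), the second control library stands above the other two, and the median of the 4 CDK inhibitors lies above their day 2 level in all 15 day 4 libraries.

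The classes fell together in control neurons, with CDK inhibitors as the exception. All 12 licensing and replication genes (median log2 fold change -1.74), all 3 nucleotide synthesis genes (-1.52), all 9 genes of G2 and mitotic entry (-1.29) and all 9 spindle genes (-1.69) were lower than at day 2. So were 8 of 9 G1 genes (-1.59) and 7 of 9 genes of transcriptional control (-0.98). Cdk4, E2f2, Rb1, Cdkn1a and Cdkn2c did not pass the test, and Cdkn1b and Cdkn2d rose. In iHoxc10 neurons the class medians against day 2 were -2.61 for nucleotide synthesis, -2.40 for licensing, -2.32 for the spindle, -2.07 for G1, -2.04 for G2 and -1.50 for transcriptional control.

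**Figure D2:**
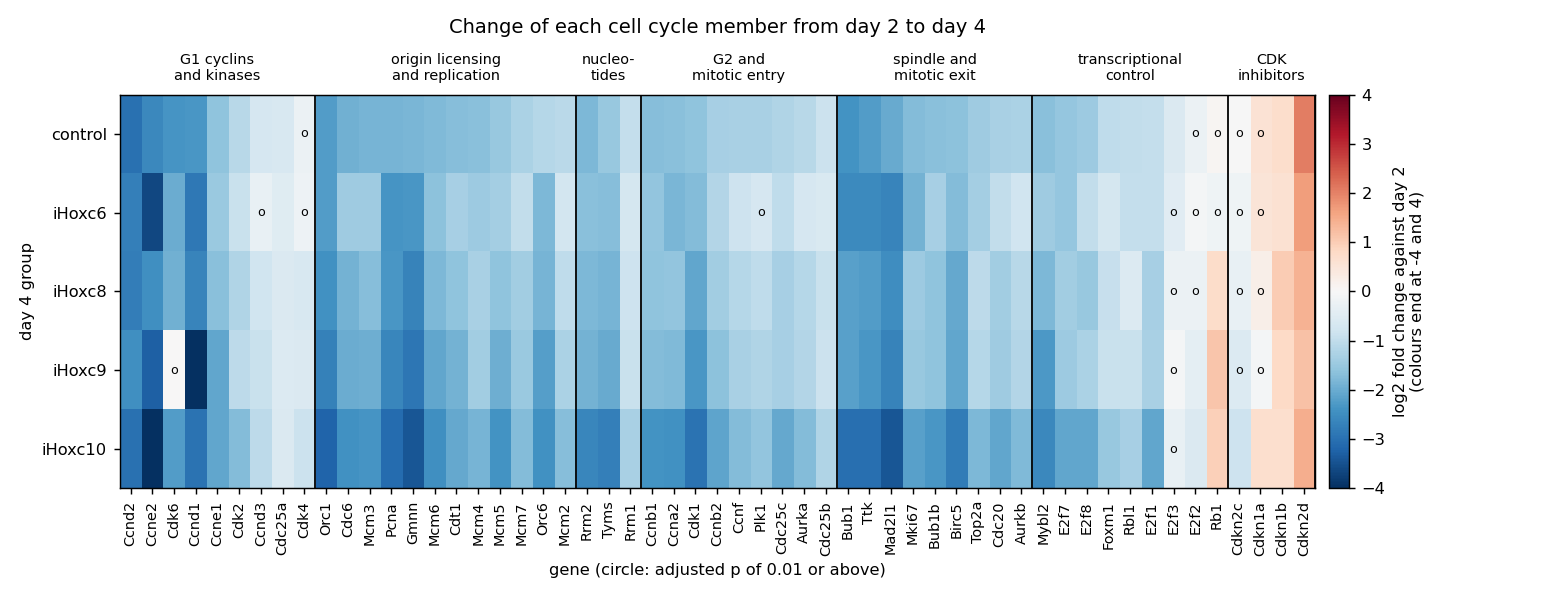
Colour gives the log2 fold change of each of the 55 genes (columns, by role) against day 2 progenitors in each day 4 group (rows), and circles mark an adjusted p of 0.01 or above. The iHoxc10 row is the darkest, with 32 genes below -2, and the iHoxc9 row holds the outlying cells of Ccnd1 (-6.97, beyond the end of the scale) and Cdk6 (0.01).

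Among the G1 genes Ccnd2 (cyclin D2) fell most in control neurons. It was 1032, 911 and 822 CPM in the day 2 libraries and 101, 162 and 85.9 CPM in control neurons, a log2 fold change of -2.99 ± 0.19, adjusted p = 1.29e-11. It stayed near that level in every Hox line, between 12.6% of day 2 for iHoxc10 and 18.4% for iHoxc9 neurons. All 15 day 4 libraries were below all 3 day 2 libraries. Cdk4, the kinase that D-type cyclins activate and the class member with the most reads, kept 85.8% of its day 2 level in control neurons (log2 fold change -0.22 ± 0.14, adjusted p = 0.218). Its 3 values were 927, 987 and 1007 CPM at day 2, 728, 839 and 940.1 CPM in control and 472, 502 and 641 CPM for iHoxc10 neurons, in which it fell (-0.86 ± 0.14, adjusted p = 2.23e-05). Per kilobase of exon Cdk4 was also the highest of the 55 at day 2, at 299.7 ± 12.8 CPM (SD, n = 3), and 19.7% of its exon bases overlap Tspan31, so some of its reads may belong there.

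Cyclin E, which drives entry into S phase, fell as well. Ccne2 was 72.7, 67.2 and 25.1 CPM at day 2 and 11.7, 8.2 and 7.78 CPM in control neurons (-2.57 ± 0.28, adjusted p = 4.80e-08). Its lowest values were in iHoxc10 neurons (3.47, 3.87 and 2.59 CPM). The values for iHoxc6 (3.9, 5.29 and 4.06 CPM) and iHoxc9 (6.14, 5.18 and 5.69 CPM) came next and overlapped. Those for iHoxc8 (9.32, 11.4 and 9.41 CPM) were close to control. Ccne2 shares 17.4% of its exon bases with Ints8. Ccne1 was 85.7, 90.3 and 110.5 CPM at day 2 and 27.5, 39.6 and 27.8 CPM in control neurons, with 21.3, 22.9 and 23.4 CPM for iHoxc9 and 21.7, 23.8 and 22.5 CPM for iHoxc10 neurons. The posterior lines lay below control without passing the test (adjusted p = 0.0147 and 0.0162).

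The genes that license and copy DNA fell in every day 4 group. Mcm7, a subunit of the replicative helicase and the class member with the most reads, was 464, 479 and 656 CPM at day 2, 184, 305 and 179 CPM in control, 255, 266 and 289.7 CPM for iHoxc6, 187, 226 and 201 CPM for iHoxc8, 173, 185 and 209 CPM for iHoxc9 and 137, 146 and 197 CPM for iHoxc10 neurons. All day 4 values were below day 2, and control neurons differed by -1.26 ± 0.19, adjusted p = 7.31e-06 on the log2 scale. Orc1, the origin recognition subunit whose promoter is printed above, fell most in control neurons, from 31.97, 30.8 and 33.2 to 5.4, 9.4 and 5.61 CPM (-2.24 ± 0.19, adjusted p = 1.23e-09), and was 2.84, 3.69 and 4.01 CPM for iHoxc10 neurons. Gmnn (geminin, which keeps origins from being licensed again) followed an order over the groups. It was 119.9, 113 and 57.2 CPM at day 2, 27.9, 24.9 and 29.5 CPM in control, 17.95, 19.4 and 20.6 CPM for iHoxc6, 14.6, 16.1 and 14.9 CPM for iHoxc8, 13.2, 12.8 and 13.2 CPM for iHoxc9 and 8.79, 7.81 and 10.5 CPM for iHoxc10 neurons. Neighbouring day 4 groups in this order did not overlap, but none of the 4 neighbouring pairs passed the direct test (adjusted p = 0.129, 0.292, 0.721 and 0.109). Orc6 was 144, 136 and 63.3 CPM at day 2, 58.7, 39.8 and 56.6 CPM in control and 19.2, 21.5 and 23.4 CPM for iHoxc10 neurons. Pcna, the sliding clamp of the DNA polymerases, has pseudogene copies that could share its reads. It was 171, 154 and 190.2 CPM in control and 70.6, 72.9 and 75.8 CPM for iHoxc10 neurons.

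Ribonucleotide reductase and thymidylate synthase supply the building blocks of new DNA. Rrm1 kept the most RNA of these, 51.6% of day 2 in control neurons (-0.96 ± 0.19, adjusted p = 1.57e-04), with 376, 408 and 412 CPM at day 2 and 183, 294 and 140.2 CPM in control. Its partner subunit Rrm2, the regulated one, went from 345, 315 and 407 CPM to 76.3, 163 and 67.7 CPM (-1.80 ± 0.23, adjusted p = 6.71e-07) and to 52.1, 53.3 and 69.6 CPM for iHoxc10 neurons. The second control library was the highest of the 15 day 4 libraries for both subunits. Tyms, which also has a pseudogene copy, was 46.9, 53.5 and 66.5 CPM in control, 46.02, 52.6 and 48.4 CPM for iHoxc6, 40.8, 47.4 and 42.3 CPM for iHoxc8, 36.6, 37.6 and 43.3 CPM for iHoxc9 and 18.1, 23.97 and 29.2 CPM for iHoxc10 neurons. Only iHoxc10 lay below all the other day 4 groups.

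The mitotic cyclin and its kinase fell in every group. Ccnb1 (cyclin B1) was 352, 327 and 287 CPM at day 2, 87.2, 135 and 72.6 CPM in control, 103, 108 and 110.4 CPM for iHoxc6, 95.7, 109 and 109 CPM for iHoxc8, 91.1, 94.8 and 103 CPM for iHoxc9 and 56.2, 53.7 and 74.1 CPM for iHoxc10 neurons, with a log2 fold change of -1.71 ± 0.18, adjusted p = 2.88e-08 in control and -2.39 ± 0.18, adjusted p = 1.14e-10 for iHoxc10. The third iHoxc10 value lay just above the lowest control value. Cdk1, its kinase, was 278, 272 and 191 CPM at day 2, 77.8, 78.2 and 89.2 CPM in control, 70.7, 78.5 and 72.1 CPM for iHoxc6, 51.9, 66.9 and 54.9 CPM for iHoxc8, 46.2, 52.7 and 49.4 CPM for iHoxc9 and 27.8, 32.96 and 35.6 CPM for iHoxc10 neurons. The second control library was not raised for Cdk1, and the iHoxc10 values lay below all others.

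Of the spindle genes Bub1, a checkpoint kinase, fell most in control neurons. It went from 166, 137 and 97.01 CPM to 26.3, 31.2 and 18.2 CPM in control neurons (-2.40 ± 0.18, adjusted p = 2.08e-10) and 15.1, 16.6 and 17.5 CPM for iHoxc10 neurons. Top2a, the topoisomerase that untangles chromosomes and the class member with the most reads, kept 37.5% in control, 39.3% for iHoxc6, 48.1% for iHoxc8 neurons, 45.8% for iHoxc9 and 28.9% for iHoxc10 neurons. Its control libraries spread widely, at 209, 374 and 129 CPM. Mad2l1, which holds the checkpoint until chromosomes attach, was 49.4, 42.6 and 49.4 CPM in control and 16.4, 17.9 and 18.6 CPM for iHoxc10 neurons, with 236, 231 and 101 CPM at day 2.

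The transcriptional regulators had the smallest median fall, and Rb1 was the one that rose in some lines. Foxm1, an activator of mitotic genes, was 83.6, 93.99 and 122 CPM at day 2 and 42.3, 70.6 and 34.96 CPM in control neurons (-1.02 ± 0.19, adjusted p = 1.00e-04). Mybl2 (B-Myb, which joins MuvB) went from 75.1, 77.5 and 99.4 to 21.8, 37.9 and 19.9 CPM (-1.66 ± 0.19, adjusted p = 1.05e-07) and was 15.9, 16.98 and 18.6 CPM for iHoxc9 and 12.3, 13.97 and 16.2 CPM for iHoxc10 neurons. E2f1, the activator of S phase genes, was 43.1, 42.6 and 40.1 CPM at day 2, 17.4, 25.3 and 22.2 CPM in control, 17.6, 16.5 and 17.1 CPM for iHoxc9 and 9.87, 9.35 and 10.7 CPM for iHoxc10 neurons, and iHoxc10 did not overlap any other group. Rb1 encodes the brake that D-type cyclins and their kinases release. It was 27.5, 25.4 and 18.8 CPM at day 2, 25.2, 29.96 and 20.4 CPM in control, 21.5, 17.99 and 24.4 CPM for iHoxc6, 45.6, 27.4 and 47.3 CPM for iHoxc8, 57.1, 45.7 and 50.2 CPM for iHoxc9 and 59.6, 39.9 and 39.6 CPM for iHoxc10 neurons. Against day 2, Rb1 rose in iHoxc8 (0.75 ± 0.21, adjusted p = 0.00394), iHoxc9 (1.09 ± 0.21, adjusted p = 1.02e-04) and iHoxc10 neurons (0.96 ± 0.21, adjusted p = 3.79e-04) and differed by 0.08 in control (adjusted p = 0.819). The second iHoxc8 library lay within the day 2 range, and the iHoxc8 call was lost without the second or the third day 2 library or without the first or the third iHoxc8 library, with an adjusted p of up to 0.0278. Of the Rb1 exon bases, 14.9% overlap Lpar6 or Rcbtb2.

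Of the CDK inhibitors, Cdkn2d and Cdkn1b rose in every day 4 group. Cdkn2d (p19Ink4d, which blocks CDK4 and CDK6) went from 19.6, 21.8 and 15.6 CPM at day 2 to 76.9, 55.2 and 101 CPM in control neurons (2.03 ± 0.17, adjusted p = 1.15e-09). It was 63.2, 64.9 and 53.8 CPM for iHoxc6, 49.7, 53.5 and 45.8 CPM for iHoxc8, 43.2, 42.00 and 42.6 CPM for iHoxc9 and 50.9, 53.99 and 51.98 CPM for iHoxc10 neurons. The iHoxc9 values were the lowest of day 4 and still above day 2 (1.17 ± 0.17, adjusted p = 3.23e-06). Cdkn1b (p27Kip1) rose from 49.01, 44.9 and 36.8 CPM to 74.5, 65.6 and 72.6 CPM in control neurons (0.70 ± 0.14, adjusted p = 1.29e-04), and its highest values were in iHoxc8 neurons, at 81.4, 99.6 and 86.00 CPM. Cdkn1a (p21Cip1, the p53 target) was 80.98, 86.3 and 73.6 CPM at day 2, 97.05, 112 and 148 CPM in control and 155, 94.2 and 138 CPM for iHoxc10 neurons. It passed the test only in iHoxc10 (0.68 ± 0.19, adjusted p = 0.00296), and the difference in control missed it at an adjusted p of 0.0128. Cdkn2c (p18Ink4c) stayed between 1.05 and 2.81 CPM in all 18 libraries and fell in iHoxc10 neurons (-0.83 ± 0.22, adjusted p = 0.00272). Without the third day 2 library or without the first or the third iHoxc10 library Cdkn1a lost its call (adjusted p up to 0.0284), and Cdkn2c lost it without the first or second day 2 or the first iHoxc10 library (up to 0.0267). Cdkn1c (p57Kip2) is not among the 55 and was looked at after its values were seen. It was 29.7, 38.7 and 63.2 CPM at day 2, 33.3, 19.02 and 31.3 CPM in control, 27.3, 38.4 and 23.9 CPM for iHoxc6, 127, 173 and 126 CPM for iHoxc8, 53.5, 66.8 and 62.9 CPM for iHoxc9 and 172, 209.6 and 231 CPM for iHoxc10 neurons, and the rise in iHoxc10 over control was 2.87 ± 0.25, adjusted p = 5.62e-08. All iHoxc8 and iHoxc9 values also lay above every control value, so higher Cdkn1c was not particular to iHoxc10.

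**Figure D3:**
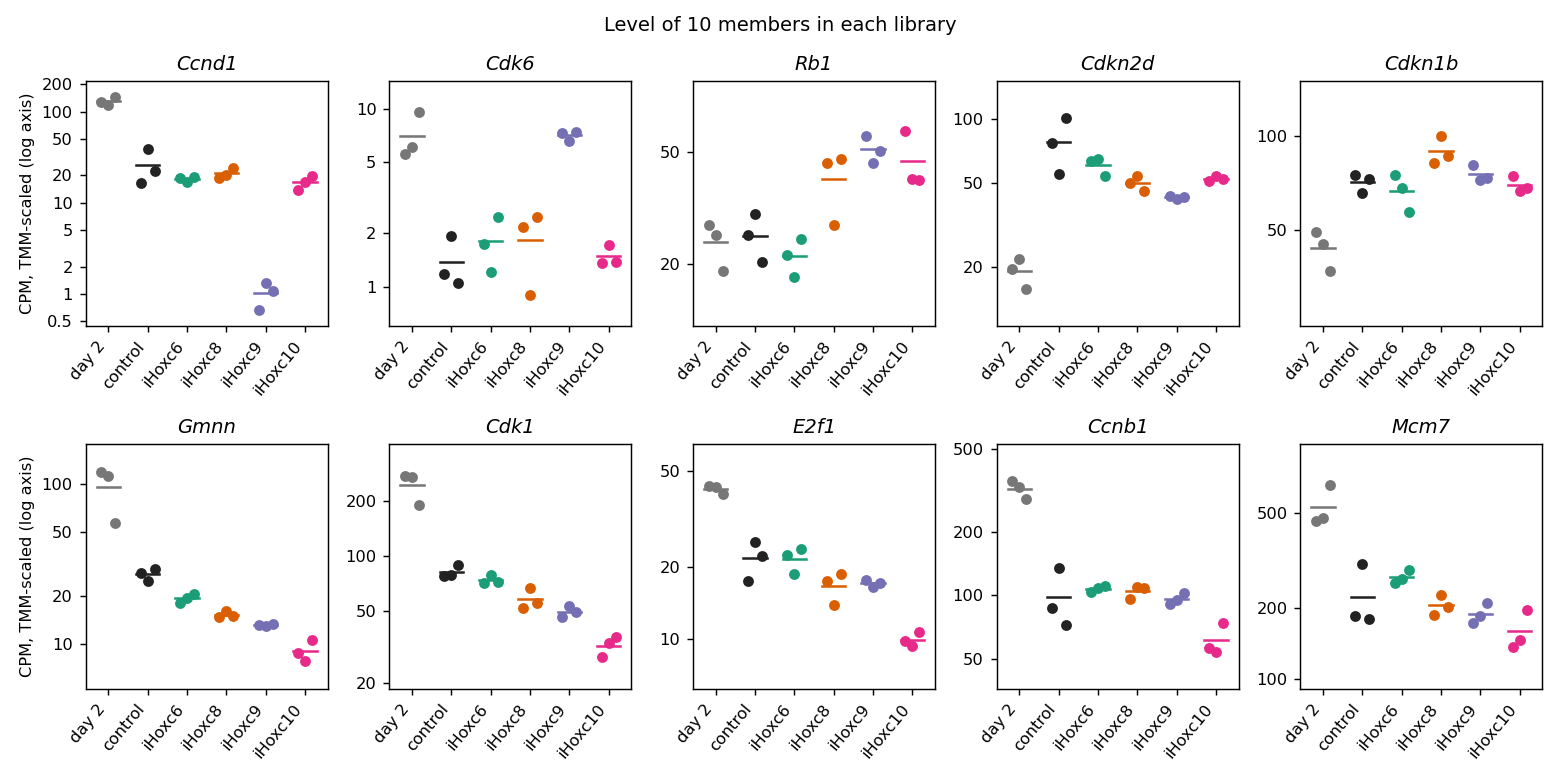
TMM-scaled CPM on log axes for 10 of the 55 genes, with 1 point per library and a bar at the mean of the 3 libraries of a group. Ccnd1 and Cdk6 separate iHoxc9 from the other day 4 groups, Rb1 lies above all day 2 libraries in all iHoxc9 and iHoxc10 libraries, and Cdk1, E2f1 and Gmnn are lowest in iHoxc10.

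The Hox lines were next compared with control neurons of the same day, to ask whether a Hox factor changed the exit. Few of the 55 genes passed the test after Hoxc6 or Hoxc8 induction. In iHoxc6 neurons, the only line from the control's run, 0 of 55 genes passed edgeR's test, where 0.224% of all genes were lower and 0.363% higher. At an unadjusted p under 0.05 there were 12, a limit at which the share of all genes was not counted. DESeq2's Wald test called 1. The median log2 fold change was 0.13. This null count rested on the second control library: without it 12 genes were called, all higher in iHoxc6 (Aurka, Aurkb, Bub1b, Ccnd3, Ccnf, Cdc6, E2f8, Foxm1, Mcm3, Mcm4, Plk1 and Rrm2), beside 2.75% of all genes, and the median was 0.41. In iHoxc8 neurons 1 gene passed, Gmnn, which was lower (-0.85 ± 0.19, adjusted p = 0.00961), against 1.09% lower and 1.03% higher of all genes. Gmnn lost its call without any of 5 single libraries, and without the second control library 3 genes were lower and 4 higher, beside 4.33% and 3.19% of all genes. The median was -0.01 with that library and 0.28 without it.

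In iHoxc9 neurons a pair of genes of G1 control changed by a large amount, Ccnd1 down and Cdk6 up. Of the 55 genes 6 were lower and 2 higher, against 7.13% and 6.95% of all genes, and the median was -0.11. Ccnd1 (cyclin D1) had fallen from 129, 119 and 145 CPM at day 2 to 16.4, 39.2 and 22.5 CPM in control, 18.7, 16.8 and 19.1 CPM for iHoxc6, 18.6, 20.3 and 24.3 CPM for iHoxc8 and 13.7, 17.1 and 19.97 CPM for iHoxc10 neurons. In iHoxc9 neurons it was 0.665, 1.32 and 1.07 CPM, 0.778% of day 2, and -4.64 ± 0.29, adjusted p = 1.17e-10 against control. Every iHoxc9 library was more than 10-fold below every other library. Ccnd1 shares 23.4% of its exon bases with LTO1, whose mean CPM was 22.2 with Hoxc9 and 22.8 with Hoxc10 induced. Cdk6, a partner kinase of the D-type cyclins, did the opposite: it was 5.56, 6.09 and 9.56 CPM at day 2, 1.19, 1.93 and 1.05 CPM in control, 1.74, 1.21 and 2.47 CPM for iHoxc6, 2.16, 0.902 and 2.47 CPM for iHoxc8, 1.37, 1.72 and 1.38 CPM for iHoxc10 and 7.35, 6.59 and 7.44 CPM for iHoxc9 neurons. The iHoxc9 level did not differ detectably from day 2 (0.01 ± 0.28, adjusted p = 1) and exceeded control by 2.36 ± 0.32, adjusted p = 1.08e-05. Rb1 was also higher than in control (1.02 ± 0.21, adjusted p = 0.00107). Gmnn (-1.07 ± 0.19, adjusted p = 3.17e-04), Orc6 (-1.05 ± 0.21, adjusted p = 0.00107), Pcna (-0.77), Cdk1 (-0.72) and Cdkn2d (-0.87) were lower. Without the second control library 6 genes were lower and 7 higher, these 8 among them, beside 9.45% and 10.3% of all genes. Ccnd2, E2f3, E2f7, Mcm4 and Top2a were the added ones, all higher in iHoxc9, and the median turned from -0.11 to 0.16. Without the third control library Rb1 (adjusted p = 0.0144) and Pcna lost their calls.

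In iHoxc10 neurons the fall was broad. Of the 55 genes 20 were lower than in control and 1, Rb1 (0.88 ± 0.21, adjusted p = 0.00337), was higher, against 7.75% and 6.67% of all genes. The 20 came from every class but the inhibitors: 5 licensing, 5 G2, 4 spindle, 3 G1, 2 transcriptional control and 1 nucleotide synthesis genes. The largest differences were in Gmnn (-1.60 ± 0.20, adjusted p = 5.59e-06), Ccne2 (-1.48 ± 0.29, adjusted p = 6.63e-04), Mad2l1 (-1.42 ± 0.20, adjusted p = 3.39e-05), Cdk1 (-1.35 ± 0.15, adjusted p = 1.43e-06) and Orc6 (-1.27 ± 0.22, adjusted p = 1.84e-04). None reached a log2 fold change of 2. The size of the shift depended on the second control library: the median log2 fold change was -0.61 with it and -0.27 without it, and 14 genes were then lower and 1 higher, beside 9.26% and 8.79% of all genes. The count was 10 without the first and 13 without the second iHoxc10 library. Rb1 lost its call without the first or the third control or the first iHoxc10 library (adjusted p up to 0.0391), and the 5 genes above kept theirs in each of these fits. Markers moved in the same comparison: 5 of 15 neural progenitor markers were lower than in control, 1 was higher, and 5 of 15 neuron markers were higher with 0 lower. Without the second control library 4 progenitor markers were lower and 2 higher, and their median log2 fold change was 0.11. In that fit 5 neuron markers were higher and 0 lower, with a median of 0.455. Per library the progenitor median was -0.43, -0.33 and -0.62 for iHoxc10 and -0.17, 0.58 and -0.21 in control on the log2(CPM + 1) scale. Their part in the result was not tested.

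**Figure D4:**
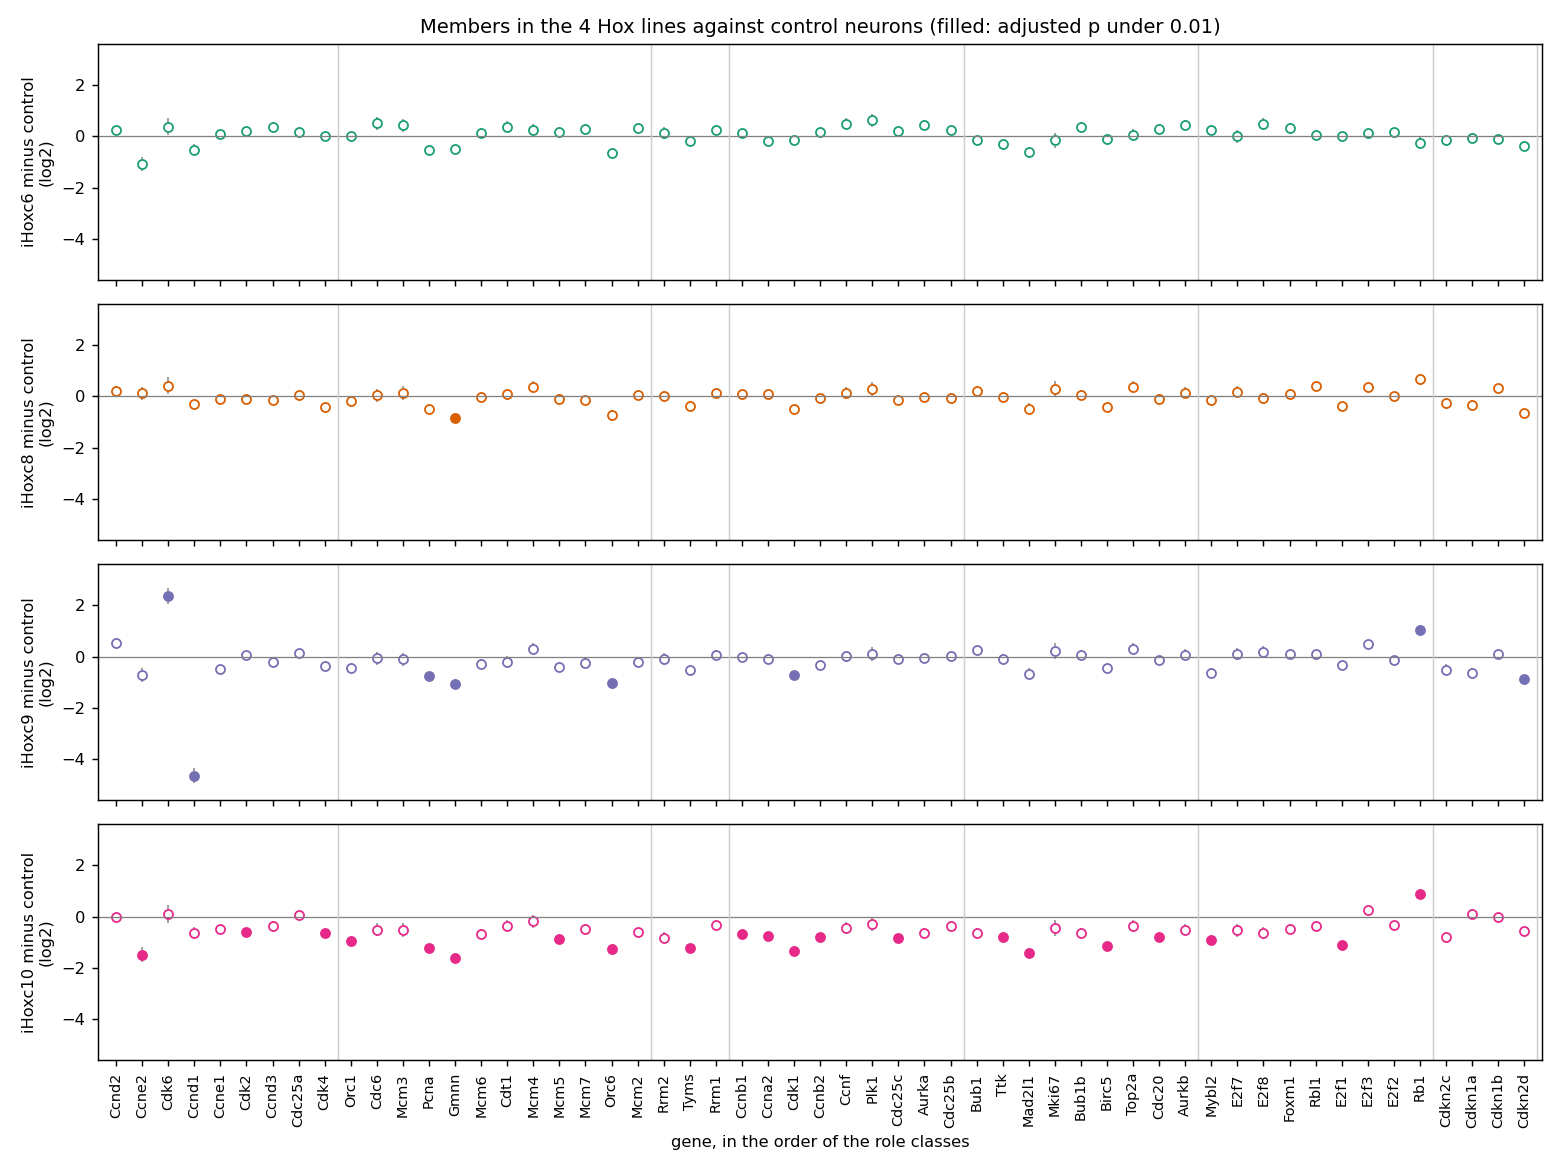
Log2 fold change against control neurons with its SE (bars, mostly smaller than the points) for each of the 55 genes, in the same order in all 4 panels, with filled points at an adjusted p under 0.01. iHoxc6 has no filled point and iHoxc8 has 1. In iHoxc9, Ccnd1 (-4.64) and Cdk6 (2.36) stand far from the rest, and in iHoxc10 most points lie below 0.

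Of the Hox lines, only iHoxc9 and iHoxc10 shared a run. Of the 55 genes 7 were higher in iHoxc9 and 1, Ccnd1, was lower, against 2.6% and 2.4% of all genes, and the median log2 fold change was 0.46. In all, 51 had a fold change above 0, whether they passed or not. The share of all genes above 0 was not counted, and the 55 genes are not independent replicates. The differences were largest in Ccnd1 (-4.02 ± 0.29, adjusted p = 2.03e-09), Cdk6 (2.25 ± 0.32, adjusted p = 3.81e-05), Bub1 (0.86 ± 0.18, adjusted p = 0.00261), E2f1 (0.77 ± 0.15, adjusted p = 0.00148) and Tyms (0.72 ± 0.17, adjusted p = 0.00608), with Birc5 (0.72), Cdk2 (0.69) and Cdk1 (0.62) the others called. Birc5 (survivin) acts at mitotic chromosomes with Aurora B. The fit to these 6 libraries alone called 30 of the 55, 28 of them higher in iHoxc9, beside 5% higher and 5.52% lower of all genes in that fit. The count ranged from 3 without the first iHoxc10 library to 6 without the third, and Ccnd1 and Cdk6 were called in all of these fits. E2f1 lost its call without the second and Birc5 without the first iHoxc10 library, Bub1, Cdk2 and Tyms without several libraries, and Cdk1 without any 1 of the 6. Over these fits the adjusted p reached 0.0138 for E2f1, 0.0198 for Bub1, 0.0571 for Tyms and 0.0647 for Cdk1. Markers moved here too: 3 of 15 progenitor markers were higher in iHoxc9 and 0 lower, and 4 of 15 neuron markers were lower with 0 higher. Their part in the result was not tested.

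The other pairs lay across runs. iHoxc6 neurons had 29 genes above iHoxc10 and 1, Rb1 (-1.12 ± 0.21, adjusted p = 6.95e-04), below, against 4.86% and 6.17% of all genes, with a median of 0.75. Cdk1 (1.20 ± 0.15, adjusted p = 9.42e-06), Mybl2 (1.15 ± 0.19, adjusted p = 2.23e-04), E2f8 (1.12 ± 0.23, adjusted p = 0.00139), an atypical E2F repressor, and E2f1 (1.11 ± 0.15, adjusted p = 2.83e-05) had the largest differences among those higher in iHoxc6, and E2f8 lost its call without the first iHoxc10 library (adjusted p = 0.0162). With 1 library left out the count fell to 19, 18 and 16 (iHoxc6 libraries 1 to 3) and to 13, 17 and 27 (iHoxc10 libraries 1 to 3). iHoxc8 neurons had 11 genes above iHoxc10 and 0 below, against 1.26% and 1.67% of all genes, with a median of 0.65. Ccne2 (1.60 ± 0.29, adjusted p = 0.001), Mad2l1 (0.95 ± 0.20, adjusted p = 0.00479), Tyms (0.87 ± 0.17, adjusted p = 0.00182), Bub1 (0.85 ± 0.18, adjusted p = 0.00435) and Cdk1 (0.85 ± 0.15, adjusted p = 7.85e-04) differed most. This count was between 1 (without the first iHoxc10 library) and 6 (without the second iHoxc8 or the third iHoxc10 library) when any 1 library was left out. Bub1 and Mad2l1 lost their calls in each of these fits (adjusted p up to 0.0358 and 0.0357), Tyms in 3, Cdk1 without the first iHoxc10 and Ccne2 without the third iHoxc10 library.

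Between iHoxc6 and iHoxc9, 4 genes were higher in iHoxc6 (Ccnd1 4.12, Mybl2 0.87, Ccne1 0.60 and Cdk1 0.58) and 2 lower (Cdk6 -1.98 and Rb1 -1.26), against 3.68% and 8.02% of all genes. The fit to these 6 libraries alone called 33, 28 of them higher in iHoxc6, beside 14.2% higher and 17.2% lower of all genes in that fit. Without the first iHoxc9 library the joint fit called 3, Ccnd1, Cdk6 and Rb1. Cdk1 lost its call without any 1 library (adjusted p up to 0.0457), Ccne1 without any but the third iHoxc9 library and Mybl2 without the first. Between iHoxc8 and iHoxc9, 1 gene, Ccnd1 (4.34), was higher in iHoxc8 and 1, Cdk6 (-1.94), lower, against 2.42% and 2.95%, and both calls held in every fit with 1 library left out. Between iHoxc6 and iHoxc8, 2 genes were lower in iHoxc6, Ccne2 (-1.18 ± 0.28, adjusted p = 0.00974) and Rb1 (-0.91 ± 0.21, adjusted p = 0.00812), and 0 were higher, against 3.07% and 0.482%. Ccne2 lost its call without any 1 library (adjusted p up to 0.0684), and Rb1 without any but the second iHoxc8 library (up to 0.0719). At an unadjusted p under 0.05, 15 genes differed in this pair, a limit at which the share of all genes was not counted.

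Wider lists of the same pathways, with no gene of the 55 in them, also fell from day 2 to day 4. Of 46 other S phase genes 46, 45, 45, 45 and 45 were lower than at day 2 in control, iHoxc6, iHoxc8, iHoxc9 and iHoxc10 neurons, and of 57 other mitosis genes 54, 51, 54, 53 and 55 were, with none higher in either list. Against control, 20 S phase and 20 mitosis genes were lower in iHoxc10 neurons, 9 and 4 for iHoxc9, 1 and 1 for iHoxc8 and 0 and 0 for iHoxc6 neurons, and none was higher. The lower shares of all genes were 7.75%, 7.13%, 1.09% and 0.224% in that order, so the counts lay above them for both lists in iHoxc10 and for the S phase list in iHoxc9, and the mitosis count of iHoxc9 and the counts of iHoxc8 and iHoxc6 were near them. Without the second control library 17 S phase and 15 mitosis genes were lower in iHoxc10 neurons, beside 9.26% of all genes. Mitosis genes that were then higher than in control numbered 14 for iHoxc9, 9 for iHoxc8 neurons, 17 for iHoxc6 and 0 for iHoxc10 neurons. The higher shares of all genes in that fit were 10.3%, 3.19%, 2.75% and 8.79% in that order. S phase genes that were then lower and higher numbered 7 and 3 for iHoxc9, 3 and 2 for iHoxc8 and 3 and 7 for iHoxc6. Of all genes 9.45% and 10.3%, 4.33% and 3.19%, and 2.45% and 2.75% were lower and higher in the same order. Chek1 (-2.69), the S phase checkpoint kinase, and Pola1 (-2.57), the catalytic subunit of DNA polymerase alpha, changed most in the S phase list in control neurons against day 2. Depdc1a (-3.21), Kif20b (-2.67), a mitotic kinesin, and Ncapg (-2.38), a condensin subunit, changed most in the mitosis list. Within the run that iHoxc9 and iHoxc10 share, 14 mitosis genes and 1 S phase gene were higher in iHoxc9, beside 2.6% of all genes, a share that the S phase count does not exceed. The medians were 0.63 and 0.41. Of 26 genes of G1 control and exit, 12 fell and 8 rose in control neurons, among them Cdk5r1 (4.06 ± 0.18, adjusted p = 4.75e-14), the activator of the neuronal kinase CDK5, while Ccng1 (-1.97) and Myc (-1.85) fell. Of 15 p53 targets 8 fell, with Pmaip1 (-2.51), Eda2r (-1.97) and Ccng1 changing most, and 1 rose. In control neurons against day 2, 21.2% of all genes were lower and 21.2% higher, the shares to set beside the G1 control and p53 counts.

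Neuron markers rose over the same interval, but progenitor markers showed no clear fall as a set in control neurons. The median log2 fold change of the 15 progenitor markers against day 2 was 0.11 in control. It was lowest in iHoxc10 neurons, at -0.46, and the other Hox lines lay between these values. By library, the control medians were -0.17, 0.58 and -0.21 as log2(CPM + 1), so the second library alone lay above day 2. All 15 neuron markers rose against day 2 in each of the 5 day 4 groups. Tubb3 (neuronal tubulin) went from 194, 309.7 and 173 CPM at day 2 to 2823, 3041 and 2951 CPM in control neurons, and the neurofilament genes Nefl and Nefm rose by 4.62 and 4.33 on the log2 scale. Of 15 progenitor markers 5 fell and 2 rose in control neurons, where 21.2% of all genes were lower and 21.2% higher than at day 2. These shares also stand beside the marker counts that follow. Vim (389.6, 444 and 546 CPM at day 2, 545, 905 and 519 CPM in control), Nes (0.57) and Msi1 (0.32) did not pass the test. Of 8 pluripotency markers 5 were lower in control neurons. Dppa5a was 6.27, 5.76 and 6.72 CPM at day 2 and 0.0642, 0.231 and 0.262 CPM in control neurons, Dppa4 changed by -5.31 and Klf4 by -2.52. Of 7 glial markers 3 fell and 2 rose, Mbp by 2.07, whereas Slc1a3 fell by 1.67. Of 9 mesoderm and endoderm markers tested 5 fell, Gata6 (-2.93) and Meox1 (-2.76) among them, and Foxa2, also a floor plate gene, was 23.6, 21.9 and 21.2 CPM in control neurons.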

How the data were processed

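Strand-specific poly(A) RNA-seq libraries of 6 groups, 3 each, were used. The submitters' processing notes name STAR (2.7.0c) for alignment, featureCounts for counting per gene and DESeq2 (1.20.0), all run by the authors. The values deposited by the authors are whole-number read counts for 27179 Entrez genes, with no normalization, and 25275 of the genes matched a symbol in the RefSeq gene table. The strand setting used for counting is not given in the sources used here, so genes that overlap on either strand may share reads, as may genes with pseudogene copies.

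The 20944 genes with a count above 0 in some iHox library were fitted over all 18 libraries in edgeR (4.0.16, R 4.3.3) with TMM scaling and a quasi-likelihood test per comparison. Adjusted p-values are Benjamini-Hochberg values over all genes tested, a gene was called at an adjusted p under 0.01, and each log2 fold change is given ± its SE. A further limit was the study's log2 fold change of 2. Medians per library use log2(CPM + 1). The model was tested on simulated data. Alternatives were DESeq2 (1.42.0) and its size factors, stricter and no filters, fits of the groups compared alone, other fold limits, a replicate block and each library left out. Tables were joined and drawn in Python (3.11.15).

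The 55 genes and the other lists were chosen with earlier results of these data known. Genes given in full are the one with the most reads and the one with the largest change in control in each role class, those that moved against the majority, the 4 CDK inhibitors and up to 5 called genes with the largest change in each comparison of day 4 groups. From each wider list up to 3 called genes with the largest change in control were named, and from each marker list up to 3 by mean CPM or by change. A few genes that this rule selects are not reported here.

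Replicate numbers are shared between groups. Deviations of same-numbered libraries from their group means correlated above 0.1 in all 3 pairs for 3 comparisons. These were iHoxc6 and iHoxc8 (0.29, 0.64 and 0.62), iHoxc6 and iHoxc9 (0.14, 0.22 and 0.11) and iHoxc9 and iHoxc10 (0.58, 0.48 and 0.66). The replicate block kept the same calls in these 3. It gave each replicate number 1 effect shared by all 6 groups, so it could not fully take up a pairing present in only some of them. The values for iHoxc6 and iHoxc9 were small, and iHoxc6 and iHoxc10 gave 0.20, 0.23 and -0.05, so pairing by number was not established. The depth of 24498630 to 33168533 counts puts the level of 3 counts at 0.0904 to 0.122 CPM. Promoters came from RefSeq (GRCm38.p6), where 6 genes have 2 promoters and any of them could hold a motif.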

Additional observations from a re-analysis of the deposited data

Results flagged for a closer look

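Ccnd1 differed between the Hox lines in the test of the lines against each other: its log2 fold change was 4.12 for iHoxc6 over iHoxc9, 4.34 for iHoxc8 over iHoxc9 and -4.02 for iHoxc9 over iHoxc10. Cdk6 differed in the opposite direction, by 2.25 for iHoxc9 over iHoxc10. Both were singled out because their level differed between lines by a log2 fold change beyond 2 and passed the direct test. Between iHoxc9 and iHoxc10 edgeR's quasi-likelihood test gave adjusted p = 2.03e-09 for Ccnd1 and 3.81e-05 for Cdk6. Control neurons are not part of these contrasts, so they compare levels between lines and not responses to induction. Groups of 3 libraries were too small for a test of single outlying libraries.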

How the results depend on the processing

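Of 180 calls of named genes, 138 held under the other tool and scaling, the stricter filter, every set of samples and every left-out library. Under at least 1 of these 42 were lost, and 0 reversed direction. Calls against day 2 made up most of the 180, but most of the lost calls lay between day 4 groups. Every named call between iHoxc8 and iHoxc10 was lost under at least 1 alternative. The fold limits are not among these, since they set the counts by size. With a log2 fold change beyond 2, genes called against day 2 numbered 9 in control, 9 for iHoxc6, 11 for iHoxc8 neurons, 16 for iHoxc9 and 32 for iHoxc10 neurons, those against control 0 for iHoxc8 neurons, 2 for iHoxc9 and 0 for iHoxc10, and those between lines 0 (iHoxc6 and iHoxc8), 1 (iHoxc6 and iHoxc9), 0 (iHoxc6 and iHoxc10), 1 (iHoxc8 and iHoxc9), 0 (iHoxc8 and iHoxc10) and 2 (iHoxc9 and iHoxc10). Beyond 1 they were 0, 5 and 9 against control, and 1, 3, 13, 1 and 2 for the same pairs in that order, iHoxc8 and iHoxc9 left aside. DESeq2's Wald test called 1 for iHoxc6, 4 for iHoxc8 and 13 for iHoxc9 against control and 18 between iHoxc8 and iHoxc10. A filter of at least 10 counts in 3 libraries left 0 calls for iHoxc8 against control and 0 for iHoxc6 against iHoxc8. Fits of the groups compared alone called 1 gene between iHoxc6 and iHoxc8, 33 between iHoxc6 and iHoxc9 and 30 between iHoxc9 and iHoxc10. DESeq2's size factors moved the iHoxc6 median against day 2 to -1.40. The cause of these changes was not tested.

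With each library left out in turn, the calls ranged over 0 to 12 for iHoxc6, 0 to 7 for iHoxc8 neurons, 7 to 13 for iHoxc9 and 10 to 23 for iHoxc10 against control. Between lines they ranged over 0 to 1 (iHoxc6 and iHoxc8), 3 to 5 (iHoxc6 and iHoxc9), 13 to 27 (iHoxc6 and iHoxc10), 1 to 6 (iHoxc8 and iHoxc10) and 3 to 6 (iHoxc9 and iHoxc10). The medians ranged over -0.74 to -0.27 for iHoxc10 against control, -1.39 to -1.15 for iHoxc6 and -1.57 to -1.33 for iHoxc9 against day 2, and 0.66 to 0.88 for iHoxc6 against iHoxc10. Where same-numbered libraries did not all correlate above 0.1, the replicate block called 50, 47, 51, 51 and 54 genes against day 2. There it also called 0, 0, 8 and 20 against control in the order of the lines. Between lines it called 32 for iHoxc6 and iHoxc10, 2 for iHoxc8 and iHoxc9 and 11 for iHoxc8 and iHoxc10. Where these libraries all correlated above 0.1, the block called 2, 6 and 8 and changed no call. Scaling by ERCC spike-ins was not run, since the count tables used here hold no ERCC rows, so a change in total RNA per cell could not be measured.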

Other observations

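The neighbours of Ccnd1 and Cdk6 were looked at in iHoxc9 neurons. Within 500000 bases of Ccnd1, 10 other genes were tested. Of these 2, Fgf15, a secreted growth factor, and Bc1, a brain cytoplasmic RNA, were lower than in control (edgeR's quasi-likelihood test), and within 500000 bases of Cdk6, 1 of 11, the gene model Gm15772, was lower, where 7.13% of all genes were. Against iHoxc10 none of them passed. Fgf15 and its neighbour Fgf3 were low everywhere on day 4: mean CPM of Fgf15 was 0.285 in control, 0.21 in iHoxc10 and 0.00981 in iHoxc9 neurons, the last under the level of 3 counts. Its adjusted p was 0.0022 against control and 0.0179 against iHoxc10. Mean CPM of Fgf3 was 0.193, 0.246 and 0.0327 in the same groups, with adjusted p = 0.0179 and 0.0118. Bc1 differed from control by -1.34 on the log2 scale (adjusted p = 0.00101). These neighbours were looked at after their values were seen.

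The fold changes of the 55 genes went with the exon length of the gene in some comparisons of day 4 groups. Spearman's rho across the 55 genes was 0.50 for iHoxc9, 0.42 for iHoxc8, 0.39 for iHoxc10 and 0.14 for iHoxc6 against control, beside 0.30, 0.31, 0.30 and 0.10 across all 19107 genes with a length. It was -0.03 for control against day 2 and 0.16 for iHoxc9 against iHoxc10. Control and iHoxc6 came from 1 run and the other Hox lines from others, genes are not independent replicates, and the part of length in the results was not tested.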
